A study of Mus musculus with 12 samples.

Results

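Natural killer (NK) receptors and granzymes were followed in the uterus and oviduct of mice in preimplantation pregnancy. The members were the 43 genes, of 19938 measured, that carried a killer cell lectin-like receptor symbol (Klra to Klrk, 23 genes) or a granzyme symbol (Gzma to Gzmn, 10 genes), together with 10 genes chosen by name: Prf1, Ncr1, Il2rb, Eomes, Tbx21, Nkg7, Il15, Il15ra, Cd244 and Xcl1. Cd244 is listed in the annotation as Cd244a and was matched by gene identifier. Each member had 1 probe set. In the mouse genome (GRCm38.p6) 23 members lie on chromosome 6, where the NK gene complex is found, and 7 lie on chromosome 14 in the granzyme cluster.

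The samples were 4 groups of 3 arrays, each array carrying 1 biological replicate: E2 uterus, oil uterus, E2 oviduct and oil oviduct. E2 mice received estradiol at 10 µg/kg under the skin each day on days 0.5 to 2.5 of pregnancy, in 100 µl of sesame oil, and oil mice received the sesame oil alone (0 µg/kg). Uterine horns and oviducts were flushed and frozen on day 3.5, before implantation. All animals were pregnant, the tissue was whole flushed organ and not sorted cells, and strain and age were not given in the sources used here. Lower doses named in the study's design were not analysed here.

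NK cells are innate lymphocytes that kill target cells by releasing granules of perforin and granzymes, and they secrete cytokines. Their activity is set by germline-encoded receptors, many of them lectin-like receptors that read MHC class I or related ligands as inhibitory or activating signals. The rodent uterus holds resident NK cells before implantation, and these expand in the decidua under the influence of interleukin 15 (IL-15), which is presented to them on its receptor chain Il15ra by neighbouring stromal and myeloid cells.

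Levels are log2 intensities. A background level of 5.67 was taken as the 95th percentile of the means of 1027 olfactory receptor genes, which these tissues are not known to use. Of the 43 members, 26 had group means above it in E2 uterus, 21 in oil uterus, 11 in E2 oviduct and 13 in oil oviduct, and 16 were below it in every group. Of 12 NK cell markers among the members, 11 lay above the background level in E2 uterus, 11 in oil uterus, 3 in E2 oviduct and 4 in oil oviduct. T cells share granzymes and several of these receptors. Among 12 T cell markers, 5 stayed below the background level in every group. Cd3e averaged 6.55 in E2 uterus, 6.40 in oil uterus, 6.48 in E2 oviduct and 6.37 in oil oviduct. Other T cell markers were less even. In E2 against oil uterus 3 of the 12 rose (12.4% of all genes), with Cd4 at 0.53 (limma adjusted p = 0.0122). In oil mice 2 were lower in oviduct than in uterus (21.5% of all genes), with Cd3g at -0.45 (limma adjusted p = 0.0172). The tissue labels matched the homeobox gene Hoxa11, a uterine identity gene, which averaged 8.67 in E2 uterus, 9.58 in oil uterus, 5.61 in E2 oviduct and 5.66 in oil oviduct. In whole tissue, fewer cells of a type and less RNA per cell cannot be told apart.

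Oil uterus replicate 3 stood apart for these genes. On it 29 of 43 members lay below both other oil uterus arrays (31.1% of all genes did), and 15 lay more than 1 log2 unit below the mean of those arrays (0.552% of all genes). The median distance of the members from the other oil uterus arrays was -0.46 log2 units, against 0.02 for all genes, and Klra8 was lowest at -2.62. On oil oviduct replicate 3, 23 members lay below both other oil oviduct arrays (38.3% of all genes) with a median distance of -0.15. Other markers moved on the same arrays. The summed intensity of 10 dendritic cell markers was 1416 on oil uterus replicate 3 against 3562 and 3738 on the other oil uterus arrays. The MHC class II genes H2-Aa, H2-Ab1 and H2-Eb1 are the brightest of the 10 and weigh most in that sum. Of the 10, 8 lay lower there (median -0.69), with distances from 0.13 for Zbtb46 to -2.85 for H2-Eb1. All 7 pan-leukocyte markers lay lower there (median -0.56). Only 3 of 12 T cell markers did so (median 0.05). On oil oviduct replicate 3, the summed intensity of the dendritic cell markers was 1792, against 5548 and 5369 on the other oil oviduct arrays. All 10 lay lower there (median -0.72), as did all 7 pan-leukocyte markers (median -0.55) and 11 of 12 T cell markers (median -0.18). The summed intensity of 6 corpus luteum and ovary markers was 4861 on that array, against 302 and 430 on the other oil oviduct arrays. The part of these differences in the results was not tested. Calls of members that changed without oil replicate 3 of both organs are therefore given beside those with all arrays.

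**Figure D1:**
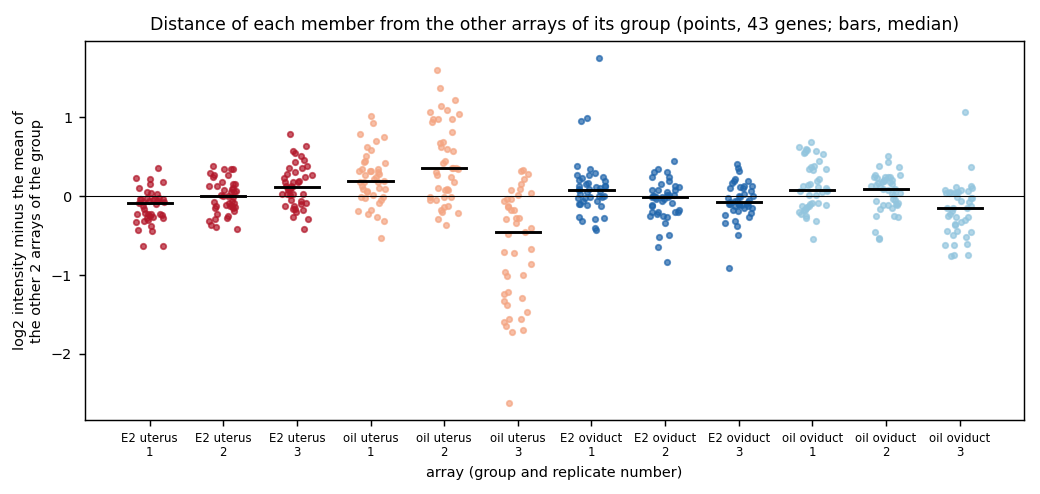
Distance of each of the 43 members from the other 2 arrays of its group (y axis, log2 units) on each of the 12 arrays (x axis, E2 uterus, oil uterus, E2 oviduct, oil oviduct). Points are genes and bars are medians. Oil uterus replicate 3 has the lowest median (-0.46) and the widest downward spread, to -2.62.

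Of the 12 NK cell markers, 5 are given here, and they do not stand for the whole list. Among the others, Klrd1 was called higher in E2 uterus. Without oil replicate 3, Klrb1c was also called higher and Gzmb lower. Ncr1 encodes NKp46, an activating receptor largely restricted to NK and related innate lymphoid cells. It read 6.99, 7.21 and 7.29 in E2 uterus, against 7.35, 7.28 and 6.02 in oil uterus. Nkg7, a granule membrane protein needed for exocytosis of cytotoxic granules, read 8.49, 8.61 and 8.98 in E2 uterus, against 8.65, 8.78 and 7.02 in oil uterus. For both genes the E2 arrays overlapped oil replicates 1 and 2, and oil replicate 3 alone was low. Il2rb, the receptor chain shared by interleukin 2 and IL-15, read 7.91, 7.97 and 8.32 in E2 uterus, against 8.25, 8.51 and 6.82 in oil uterus. Eomes, a T-box transcription factor that NK cells need to mature, read 6.67, 6.80 and 7.20 in E2 uterus, against 6.51, 6.98 and 5.50 in oil uterus. Tbx21 (T-bet), the related T-box factor, read 6.53, 6.22 and 6.40 in E2 uterus, against 6.22, 6.36 and 5.95 in oil uterus. None of these 5 genes passed the test between E2 and oil uterus with all arrays or without oil replicate 3. Without it, their log2 differences were -0.15 for Ncr1, -0.03 for Nkg7, -0.31 for Il2rb (limma adjusted p = 0.0919), 0.14 for Eomes and 0.09 for Tbx21.

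**Figure D2:**
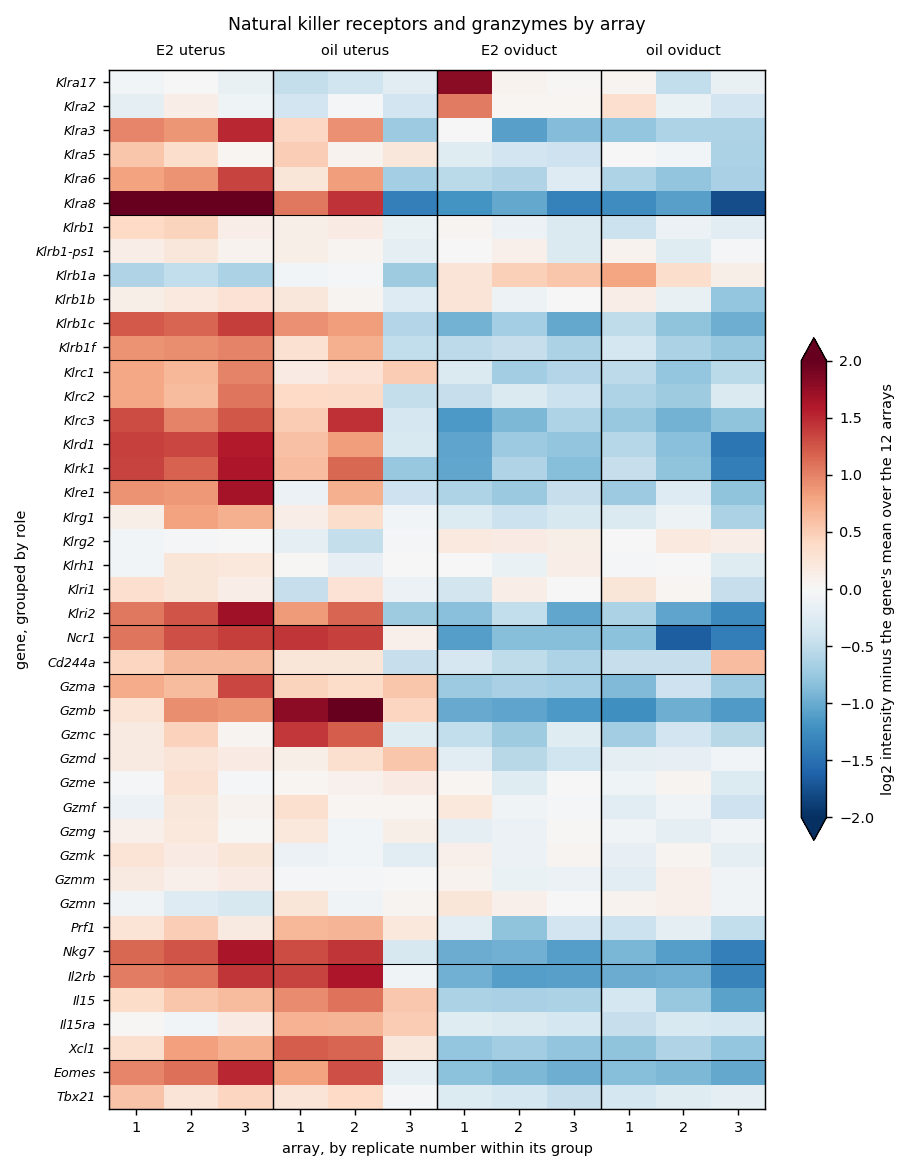
Log2 intensity of each member (rows, grouped by role) on each array (columns, by group and replicate number), as the difference from that gene's mean over the 12 arrays. Red is higher and blue lower. The receptor and granule genes are mostly red in both uterine groups and blue in both oviduct groups, and oil uterus replicate 3 is paler or blue.

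The comparison of E2 uterus with oil uterus asks how excess estradiol bears on NK genes in the organ that receives the embryo. Lectin-like receptor genes are 23 of the 43 members, and they made up most of those called with all arrays. The receptor genes called in that fit were higher in E2 uterus, while the IL-15 receptor chain Il15ra was lower. Without oil replicate 3, the receptor gene Klrb1a was called lower. Nothing is read from the share of receptor genes among the calls. With all 12 arrays in the fit, 8 members rose and 1 fell at a limma adjusted p under 0.05 over all 19938 genes. These 9 are 20.9% of the members, against 26.7% of all genes called in that comparison, so the members were not called more often than other genes. By direction, 18.6% of the members rose, against 12.4% of all genes, and 2.33% fell, against 14.3%. The median log2 change of the members was 0.28 and that of all genes 0.00. On the arrays themselves, 13 members were higher on every E2 uterus array than on any oil uterus array (19.0% of all genes were) and 1 was lower (21.5% of all genes). Without oil replicate 3, 15 members were called, against 28.0% of all genes. Of these, 9 were higher (13.5% of all genes) and 6 lower (14.5%), and the median was 0.18. Of the 9 first called, 7 were called both ways, and Gzmk, Klrd1 and Il15ra kept their calls under every alternative in which they were tested.

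**Figure D3:**
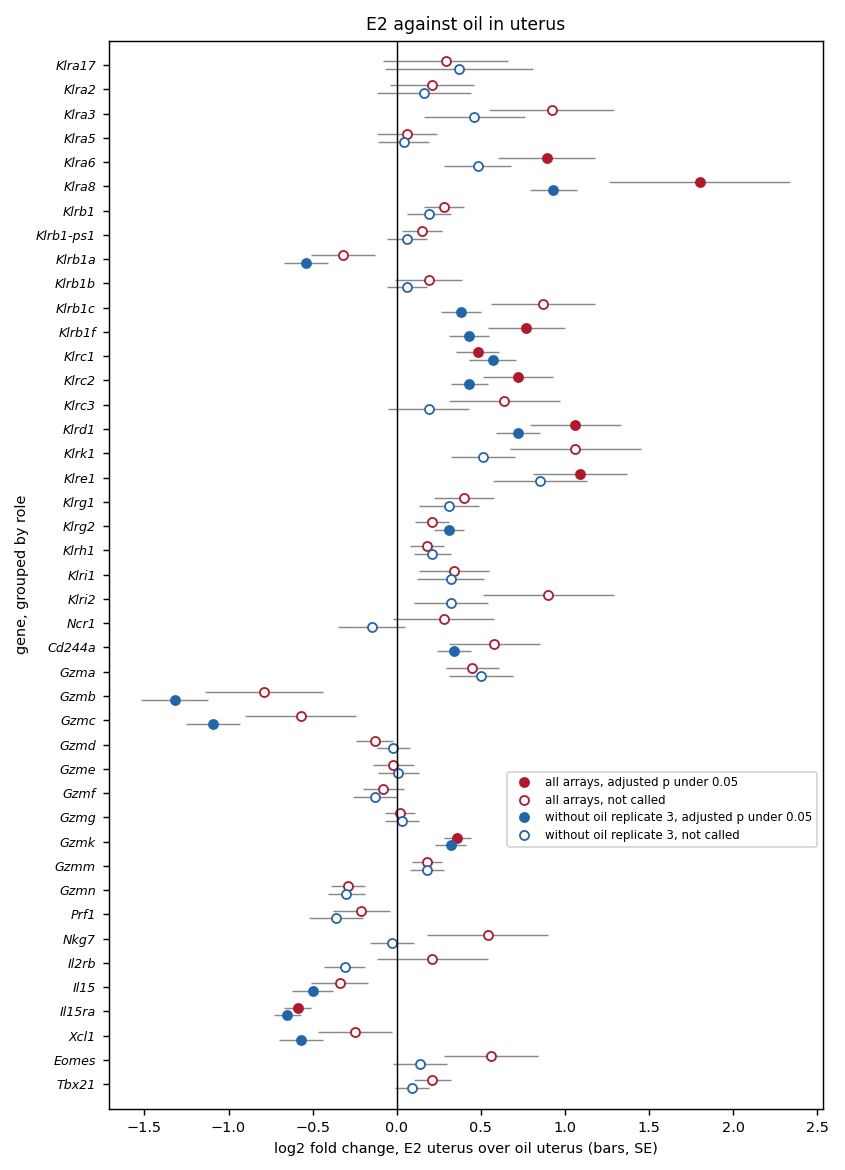
Log2 fold change of each member, E2 uterus over oil uterus (x axis, bars are SE), with all arrays (red) and without oil replicate 3 (blue). Filled points passed a limma adjusted p under 0.05. Receptors lie mostly right of 0 and move toward it without oil replicate 3, while Gzmb, Gzmc, Il15, Il15ra and Xcl1 lie left of it.

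Ly49 receptors (Klra genes) bind classical MHC class I in mice, as inhibitory or activating forms. Of the 6 Ly49 genes, 2 rose with all arrays (Klra8 and Klra6), where 12.4% of all genes did. Without oil replicate 3, 1 rose (Klra8), where 13.5% of all genes did. Klra8 encodes Ly49H, an activating receptor known for recognising a mouse cytomegalovirus protein. It read 7.81, 7.90 and 8.16 in E2 uterus, against 6.84, 7.23 and 4.41 in oil uterus, so the groups did not overlap. The low value of 4.41 was within the range of the oviduct arrays, which was 4.43 to 4.75 with E2 and 4.0 to 4.70 with oil. Klra8 rose by 1.80 (SE 0.54, limma adjusted p = 0.0284), and by 0.93 without oil replicate 3 (limma adjusted p = 0.000849). Klra6 (Ly49F) read 4.81, 4.90 and 5.36 in E2 uterus, against 4.25, 4.83 and 3.32 in oil uterus, all below the background level. Its rise of 0.89 (SE 0.29, limma adjusted p = 0.0414) became 0.48 without oil replicate 3 and was no longer called (limma adjusted p = 0.102). Klra3 (Ly49C), an inhibitory receptor, read 6.84, 6.74 and 7.37 in E2 uterus, against 6.27, 6.77 and 5.14 in oil uterus, with overlap between the groups and no call. Klra5 read 4.52, 4.32 and 4.01 in E2 uterus, against 4.46, 4.04 and 4.19 in oil uterus, and was not called either. Klra2 and Klra17 had uterine values of 3.95 to 5.07, below the background level, and were not called. Ly49 genes are near-identical copies, so signal between them can be shared and the identity of a single Ly49 gene is uncertain.

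CD94 (Klrd1) pairs with the NKG2 proteins to read Qa-1, a nonclassical class I molecule, and NKG2D (Klrk1) reads stress-induced ligands. Of these 5 genes, Klrd1, Klrc1 and Klrc2 rose with all arrays (12.4% of all genes) and without oil replicate 3 (13.5% of all genes). Klrd1 read 6.82, 6.80 and 7.04 in E2 uterus, against 6.05, 6.29 and 5.16 in oil uterus, and rose by 1.06 (SE 0.27, limma adjusted p = 0.0121). The rise was 0.72 without oil replicate 3 (limma adjusted p = 0.00188). Klrc1 encodes NKG2A, the inhibitory partner of CD94. It read 6.06, 5.95 and 6.28 in E2 uterus, against 5.46, 5.58 and 5.80 in oil uterus, and rose by 0.48 (SE 0.13, limma adjusted p = 0.0163). Unlike most members, Klrc1 was not low on oil uterus replicate 3, where it lay 0.28 above the other oil arrays. Klrc2 encodes NKG2C, an activating partner. It read 5.95, 5.81 and 6.24 in E2 uterus, against 5.57, 5.56 and 4.70 in oil uterus, and rose by 0.72 (SE 0.21, limma adjusted p = 0.0230), or by 0.43 without oil replicate 3 (limma adjusted p = 0.0165). Klrd1, Klrc1 and Klrc2 showed no overlap between E2 and oil uterus. Klrk1 did not overlap either, at 6.85, 6.67 and 7.12 in E2 uterus, against 6.11, 6.64 and 4.73 in oil uterus, but its difference of 1.06 was not called (limma adjusted p = 0.0681). Klrc3 (NKG2E) read 5.04, 4.74 and 4.98 in E2 uterus, against 4.25, 5.20 and 3.40 in oil uterus, with overlap and no call.

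NKR-P1 receptors (Klrb1 genes) read lectin-like ligands of the Clec2 family. Klrb1f, an activating receptor, read 8.20, 8.24 and 8.30 in E2 uterus, against 7.61, 8.02 and 6.81 in oil uterus, without overlap. It rose by 0.77 (SE 0.23, limma adjusted p = 0.0274), and by 0.43 without oil replicate 3 (limma adjusted p = 0.0258). Klrb1c encodes the NK1.1 antigen, the usual surface marker of NK cells in several mouse strains. It read 6.70, 6.65 and 6.86 in E2 uterus, against 6.40, 6.32 and 4.89 in oil uterus. The groups did not overlap, yet the difference of 0.87 was not called with all arrays (limma adjusted p = 0.0616). With the low array left out, Klrb1c was 0.38 higher in E2 uterus and was called (limma adjusted p = 0.0414). Klrb1a, another activating member, read 4.71, 4.82 and 4.68 in E2 uterus, against 5.26, 5.29 and 4.61 in oil uterus, so that E2 and the low oil array overlapped. Its difference was -0.32 with all arrays (limma adjusted p = 0.276) and -0.54 without oil replicate 3 (limma adjusted p = 0.00988), at levels below background throughout the uterus. Klrb1b, an inhibitory receptor, read 6.49, 6.57 and 6.65 in E2 uterus, against 6.59, 6.43 and 6.11 in oil uterus, and Klrb1 read 5.25, 5.30 and 4.99 in E2 uterus, against 4.97, 5.02 and 4.72 in oil uterus. Neither was called, nor was the pseudogene Klrb1-ps1, which read 4.52 to 5.04 over all arrays. The ligands of some of these receptors were in a separate list, in which Clec2i, which encodes a ligand of the Klrb1f product, rose by 0.82 (limma adjusted p = 0.00113).

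Klre1 forms heterodimers with the Klri1 and Klri2 products. It read 4.47, 4.44 and 5.25 in E2 uterus, against 3.46, 4.29 and 3.16 in oil uterus, without overlap but below the background level on every array. The rise was 1.09 (SE 0.28, limma adjusted p = 0.0134), and 0.85 without oil replicate 3, where it was not called (limma adjusted p = 0.0502). Klri2 read 6.27, 6.48 and 6.92 in E2 uterus, against 6.07, 6.39 and 4.51 in oil uterus, with overlap and no call. Klri1 was not called in any comparison (5.91 to 6.12 in E2 uterus, against 5.33 to 6.07 in oil uterus), nor was Klrh1, which lay between 2.32 and 2.80 on all arrays. Klrg1, an inhibitory receptor for E-cadherin, read 5.62, 6.30 and 6.20 in E2 uterus, against 5.63, 5.84 and 5.44 in oil uterus, and was not called (difference 0.40, limma adjusted p = 0.129). Its ligand gene Cdh1 rose by 0.78 (SE 0.08, limma adjusted p = 2.88e-05). Klrg2 read 5.95, 5.97 and 5.99 in E2 uterus, against 5.80, 5.52 and 5.98 in oil uterus, and was called without oil replicate 3 alone (0.31 higher, limma adjusted p = 0.0313). Cd244a encodes 2B4, a receptor for CD48. It read 7.05, 7.27 and 7.27 in E2 uterus, against 6.85, 6.86 and 6.15 in oil uterus. The groups did not overlap, and the difference was 0.58 with all arrays (limma adjusted p = 0.142) and 0.34 without oil replicate 3 (limma adjusted p = 0.0229). Cd48 rose by 0.76 (SE 0.17, limma adjusted p = 0.00534).

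**Figure D4:**
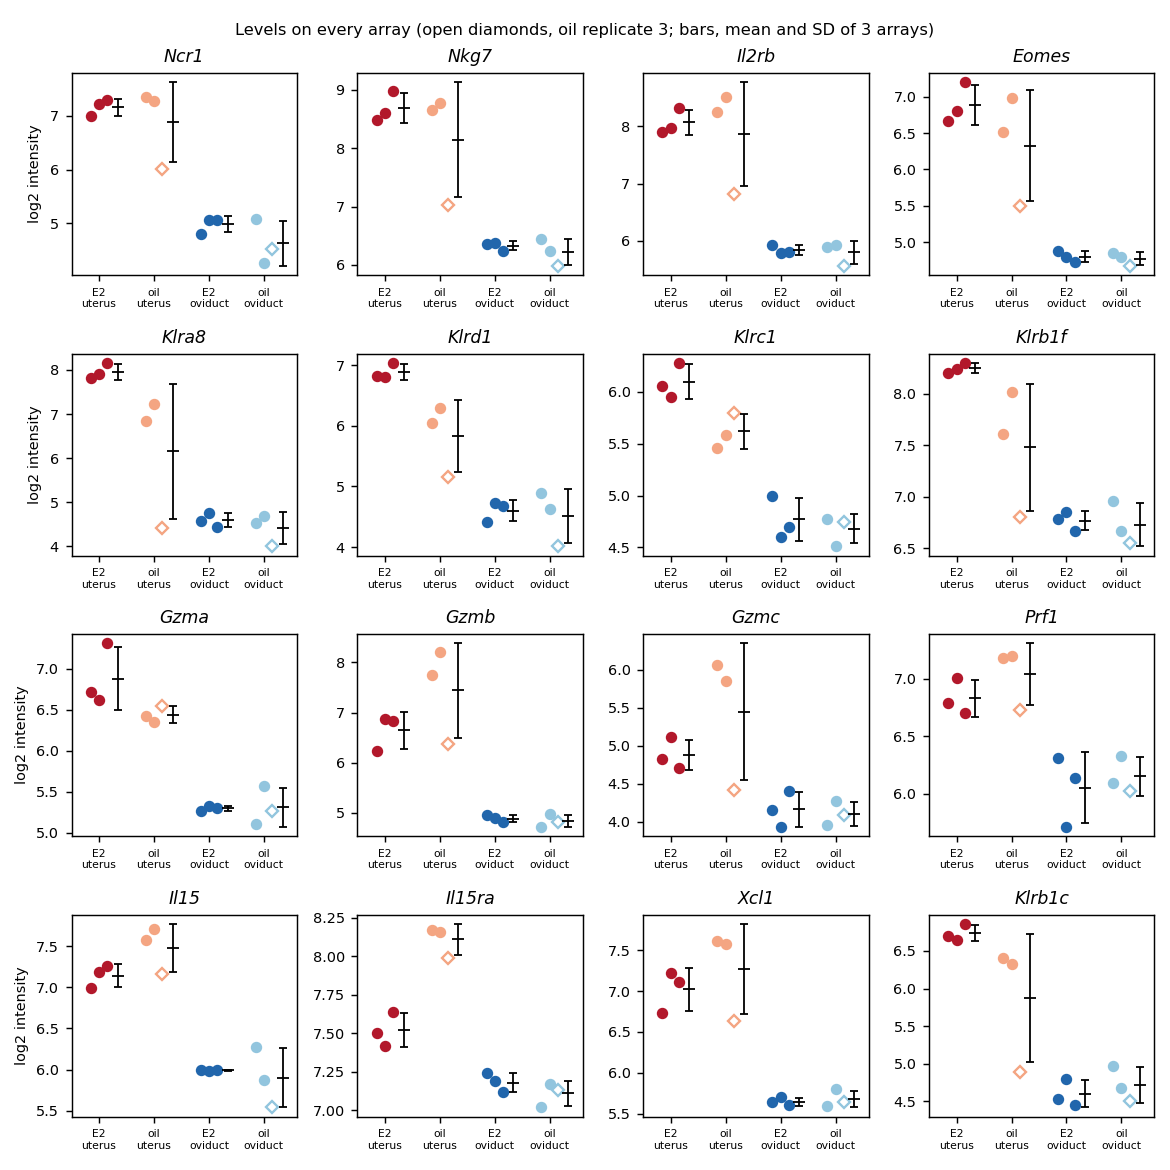
Log2 intensity of 16 members (y axis) on every array of E2 uterus, oil uterus, E2 oviduct and oil oviduct (x axis), with mean and SD of 3 arrays. Open diamonds mark oil replicate 3. Klra8, Klrd1 and Klrb1f are higher on every E2 uterus array than on any oil uterus array, while Gzmb and Gzmc are lower in E2 uterus than on oil replicates 1 and 2 only.

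Of 12 granule genes, 1 (Gzmk) rose with all arrays and 0 fell, and without oil replicate 3, 1 rose and 2 fell (Gzmb and Gzmc). Of all genes, 12.4% rose and 14.3% fell with all arrays, and 13.5% and 14.5% without oil replicate 3. Nothing is read from the counts of granule genes. Gzmb encodes granzyme B, the protease that cleaves after aspartate and triggers apoptosis in target cells. It read 6.23, 6.88 and 6.84 in E2 uterus, against 7.74, 8.20 and 6.38 in oil uterus. Each E2 array was below oil replicates 1 and 2, and oil replicate 3 was inside the E2 range. The difference was -0.79 with all arrays (SE 0.35, limma adjusted p = 0.128) and -1.32 without oil replicate 3 (SE 0.20, limma adjusted p = 0.000618). Gzmc, a neighbour of Gzmb in the chromosome 14 cluster, read 4.83, 5.11 and 4.71 in E2 uterus, against 6.07, 5.86 and 4.41 in oil uterus. Oil replicates 1 and 2 were the uterine arrays on which it exceeded the background level. Its difference was -0.57 with all arrays (limma adjusted p = 0.258) and -1.09 without oil replicate 3 (limma adjusted p = 0.000598). Perforin (Prf1), which opens the target membrane to granzymes, read 6.79, 7.01 and 6.70 in E2 uterus, against 7.18, 7.20 and 6.73 in oil uterus. Prf1 was not called, at -0.21 with all arrays and -0.36 without oil replicate 3 (limma adjusted p = 0.135).

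Gzma, a trypsin-like granzyme abundant in NK cells, read 6.72, 6.62 and 7.31 in E2 uterus, against 6.42, 6.35 and 6.54 in oil uterus. The groups did not overlap and oil uterus replicate 3 was the highest oil array, but the difference of 0.45 was not called (SE 0.16, limma adjusted p = 0.0668). Gzmk, another trypsin-like granzyme, read 5.67, 5.57 and 5.65 in E2 uterus, against 5.28, 5.34 and 5.18 in oil uterus, and rose by 0.36 (SE 0.08, limma adjusted p = 0.00770). Its call was kept without oil replicate 3 (0.32, limma adjusted p = 0.0239), at group means of 5.63 in E2 uterus and 5.27 in oil uterus that lie below the background level. Gzmn read 3.55, 3.35 and 3.29 in E2 uterus, against 3.85, 3.55 and 3.66 in oil uterus, with a limma adjusted p of 0.0547. Gzmd, Gzme, Gzmf and Gzmg, expressed by decidual NK cells later in pregnancy, had uterine values between 3.27 and 5.23 and differences of -0.13 to 0.02, none of them called. These genes are close copies of each other, so their separate identity on the array is uncertain. Gzmm read 5.81, 5.74 and 5.79 in E2 uterus, against 5.60, 5.60 and 5.62 in oil uterus, without overlap or call.

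The promoters of Gzmb and Gzmc are shown because these neighbours had the largest decreases among the members without oil replicate 3. Prf1 is shown as the granule partner that was not called and Klrc1 as a receptor that rose. Each sequence is the 250 bases before a start site in RefSeq (GRCm38.p6), read 5′ to 3′ on the gene's strand, with the RUNX core TGTGGT or its reverse complement ACCACA in capitals. RUNX factors are known regulators of cytotoxic lymphocyte genes. The windows are chr14:56262335-56262584 on the minus strand for Gzmb, chr14:56234658-56234907 on the minus strand for Gzmc, chr10:61297586-61297835 on the plus strand for Prf1 and chr6:129678974-129679223 on the minus strand for Klrc1.
Gzmb: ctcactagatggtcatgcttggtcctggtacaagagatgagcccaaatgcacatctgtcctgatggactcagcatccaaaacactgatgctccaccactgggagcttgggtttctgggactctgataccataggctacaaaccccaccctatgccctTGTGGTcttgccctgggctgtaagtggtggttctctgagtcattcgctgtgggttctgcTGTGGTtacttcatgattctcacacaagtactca
Gzmc: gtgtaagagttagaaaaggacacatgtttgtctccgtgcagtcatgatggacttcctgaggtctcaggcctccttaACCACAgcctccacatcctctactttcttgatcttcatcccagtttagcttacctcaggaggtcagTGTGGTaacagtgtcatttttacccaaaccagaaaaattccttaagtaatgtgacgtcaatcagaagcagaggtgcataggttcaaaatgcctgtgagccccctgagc
Prf1: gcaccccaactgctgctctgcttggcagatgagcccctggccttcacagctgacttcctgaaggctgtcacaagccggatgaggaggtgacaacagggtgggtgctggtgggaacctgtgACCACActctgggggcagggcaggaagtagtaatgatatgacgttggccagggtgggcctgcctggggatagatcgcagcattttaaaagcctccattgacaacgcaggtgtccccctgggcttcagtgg
Klrc1: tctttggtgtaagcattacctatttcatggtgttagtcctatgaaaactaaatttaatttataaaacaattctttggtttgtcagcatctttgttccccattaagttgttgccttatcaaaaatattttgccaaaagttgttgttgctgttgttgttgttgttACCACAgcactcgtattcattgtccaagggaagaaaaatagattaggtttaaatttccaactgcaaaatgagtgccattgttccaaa
Counted from the start site used, the RUNX letters stood at -93 to -88 and -34 to -29 for Gzmb. They stood at -174 to -169 and -108 to -103 for Gzmc, at -130 to -125 for Prf1 and at -87 to -82 for Klrc1. The start sites used for Gzmc, Prf1 and Klrc1 lie inside the annotated spans of these genes and not at their outer ends. Promoter windows were given for 37 members (44 windows), and on either strand 21 of these windows, belonging to 19 genes, held the RUNX letters, against 14% of all 32851 windows of that length. The 19 genes were 8 granzymes, 7 Klr genes, Prf1, Nkg7, Ncr1 and Xcl1. Close copies in the granzyme and Klr clusters share promoter sequence, so these windows are not independent. The T-box half-site GGTGTGA was found in 4 members (3.33% of all windows), the STAT motif TTCNNNGAA in 3 (7.02%) and the AP-1 motif TGANTCA in 3 (6.75%), Gzmb among the last. The palindromic estrogen response element GGTCANNNTGACC was in 0 member windows, against 0.0639% of all windows. These are matches of letters and not measured binding.

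To set granule genes and receptors beside NK markers of the same array, each member was also expressed relative to the mean log2 level of Ncr1, Nkg7, Il2rb and Eomes. That mean was 7.51, 7.65 and 7.95 in E2 uterus, against 7.69, 7.89 and 6.34 in oil uterus. The scale was chosen after the data were seen and no test was made on it. On oil uterus replicate 3 the 4 genes lay at -1.29 (Ncr1), -1.70 (Nkg7), -1.56 (Il2rb) and -1.25 (Eomes) from the other oil arrays. Gzmb lay at -1.59 and Gzmc at -1.55, so subtracting this mean brings that array close to the others for them by construction. Relative Gzmb was -1.29, -0.77 and -1.11 in E2 uterus, against 0.06, 0.31 and 0.04 in oil uterus, without overlap. Relative Gzmc was -2.69, -2.54 and -3.24 in E2 uterus, against -1.62, -2.02 and -1.93 in oil uterus, again without overlap. Relative Klra8 was 0.30, 0.26 and 0.22 in E2 uterus, against -0.85, -0.66 and -1.93 in oil uterus, where oil replicate 3 was still lowest. Relative Klrd1 was -0.69, -0.85 and -0.91 in E2 uterus, against -1.64, -1.60 and -1.18 in oil uterus. Of the other 39 members, 7 were higher on every E2 uterus array than on any oil uterus array (Klra3, Klra6, Klra8, Klrb1c, Klrd1, Klri2 and Klrk1), against 1.02% of all genes on this scale. The subtracted mean was lowest on oil replicate 3, so a gene that was not itself low on that array is raised there by the scale, and nothing is read from the members' count against that share. In the opposite direction, 6 members were lower without overlap (Gzmb, Gzmc, Klrb1a, Il15, Il15ra and Xcl1), against 11.5% of all genes. A ratio within an array shows unequal change and not which of its terms changed.

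**Figure D5:**
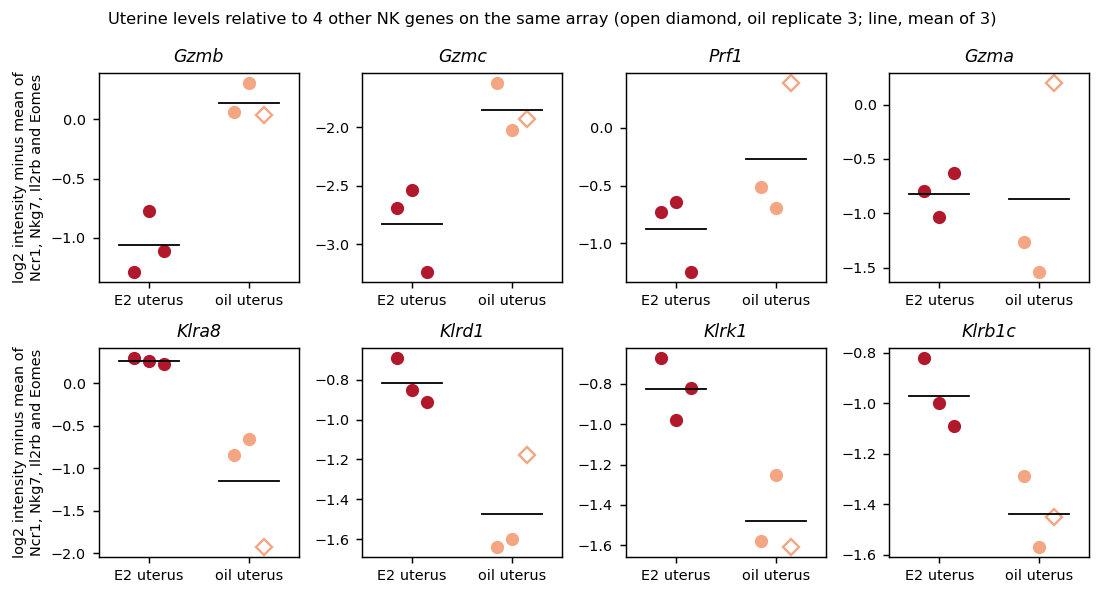
Log2 intensity of 8 members minus the mean of Ncr1, Nkg7, Il2rb and Eomes on the same array (y axis), for E2 uterus and oil uterus (x axis). Points are arrays, the open diamond is oil replicate 3 and lines are means of 3. Gzmb and Gzmc are lower, and Klra8, Klrd1, Klrk1 and Klrb1c higher, on every E2 array than on any oil array.

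IL-15 maintains NK cells, and Il15ra presents it in trans. Il15ra read 7.50, 7.42 and 7.64 in E2 uterus, against 8.17, 8.16 and 7.99 in oil uterus. The groups did not overlap, and oil uterus replicate 3 lay close to the other oil arrays. Il15ra fell by 0.59 (SE 0.08, limma adjusted p = 0.000197), and the change was -0.65 without oil replicate 3 (limma adjusted p = 0.000254). Il15 read 6.99, 7.18 and 7.26 in E2 uterus, against 7.57, 7.71 and 7.16 in oil uterus, with overlap through oil replicate 3. Its difference of -0.34 was not called with all arrays (limma adjusted p = 0.189), and was called at -0.50 without oil replicate 3 (limma adjusted p = 0.0106). Xcl1 encodes lymphotactin, the NK and T cell chemokine that attracts XCR1-bearing dendritic cells. It read 6.73, 7.22 and 7.11 in E2 uterus, against 7.61, 7.57 and 6.63 in oil uterus, and its difference was -0.25 with all arrays (limma adjusted p = 0.480) and -0.57 without oil replicate 3 (limma adjusted p = 0.00765).

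In the oviduct, no member passed the test between E2 and oil. With all arrays 0 of 43 were called by limma, against 0.291% of all genes, and 3 had an unadjusted p under 0.05 (Gzmd, Gzmf and Klra17), against 10.5% of all genes. Without oil replicate 3, 0 were called as well, against 0.607% of all genes. The median log2 difference was 0.05, against -0.01 for all genes. Gzmd read 2.93, 2.60 and 2.76 in E2 oviduct, against 2.95, 2.98 and 3.10 in oil oviduct, and Gzmf 4.33, 4.04 and 4.09 in E2 oviduct, against 3.88, 4.04 and 3.70 in oil oviduct. Both genes lay below the background level. Klra17, singled out after its values were seen, read 6.23, 4.50 and 4.45 in E2 oviduct, against 4.49, 3.94 and 4.29 in oil oviduct, so its difference of 0.82 came from E2 oviduct replicate 1. Klra2 and Klra3, also singled out after their values were seen, were highest on that array among the oviduct arrays, at 5.97 and 5.85, and the summed intensity of 7 pan-leukocyte markers was 2974 there against 2420 and 2371 on the other E2 oviduct arrays. Cd244a read 6.28, 6.10 and 6.0 in E2 oviduct, against 6.15, 6.16 and 7.23 in oil oviduct, where the high value was on oil replicate 3.

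The E2 effect in the oviduct was set against that in the uterus as an interaction, the oviduct log2 change minus the uterine one. By limma 1 member differed, Il15ra, against 11.5% of all genes. Its E2 change was 0.08 in oviduct and -0.59 in uterus, a difference of 0.66 (SE 0.11, limma adjusted p = 0.00268), and the call was kept under every alternative tried. Il15ra read 7.24, 7.19 and 7.12 in E2 oviduct, against 7.02, 7.17 and 7.13 in oil oviduct, which overlapped. Without oil replicate 3, 6 members differed, against 14.1% of all genes. The interaction was positive for Gzmb (1.36, limma adjusted p = 0.00850), Gzmc (1.14, limma adjusted p = 0.00777) and Il15ra (0.73, limma adjusted p = 0.00241), whose uterine change was a decrease. For Klra8 (-0.96, limma adjusted p = 0.0110), Klrd1 (-0.87, limma adjusted p = 0.00935) and Klrb1c (-0.61, limma adjusted p = 0.0415), whose uterine change was an increase, it was negative. With all arrays these 5 other genes had limma adjusted p-values of 0.142 to 0.503 for the interaction.

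Most members called between the organs were lower in oviduct than in uterus, in both treatments. In E2 mice 30 members differed between oviduct and uterus (34.1% of all genes did), 28 of them lower in oviduct (18.9% of all genes) and 2 higher (15.2%). In oil mice 27 differed (38.7% of all genes), 25 lower in oviduct (21.5%) and 2 higher (17.3%). The median log2 difference was -0.88 in E2 mice and -0.65 in oil mice, against -0.04 for all genes in each. Without oil replicate 3, 28 members differed in oil mice (36.7% of all genes), with a median of -0.88. In E2 mice 33 members were lower on every oviduct array than on any uterine array (28.7% of all genes), and in oil mice 20 were (26.4%). Markers of other cells differed between the organs too. In oil mice 7 of 8 endothelial markers (median -0.94) and 7 of 10 stromal and decidual markers (median -0.85) were lower in oviduct. Pan-leukocyte markers had a median of -0.57, and 9 of 10 epithelial markers were higher (median 1.17). The part of these markers in the organ differences of the members was not tested.

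Klra8 had the largest tissue difference in E2 mice, at 4.58, 4.75 and 4.43 in E2 oviduct, against the uterine values of 7.81 to 8.16 given above (log2 difference -3.37, limma adjusted p = 0.000499). Nkg7 read 6.36, 6.38 and 6.24 in E2 oviduct and 6.44, 6.24 and 5.98 in oil oviduct, lower than uterus by a log2 difference of -2.36 in E2 mice (limma adjusted p = 0.000326) and -1.93 in oil mice (limma adjusted p = 0.00106). Ncr1 read 4.81, 5.07 and 5.07 in E2 oviduct and 5.09, 4.27 and 4.53 in oil oviduct. Its differences from uterus were -2.18 in E2 mice (limma adjusted p = 0.000180) and -2.25 in oil mice (limma adjusted p = 0.000104). Il2rb read 5.93, 5.79 and 5.81 in E2 oviduct and 5.90, 5.93 and 5.56 in oil oviduct, with differences of -2.22 and -2.06 from uterus in E2 and oil mice. Eomes read 4.88, 4.80 and 4.72 in E2 oviduct and 4.85, 4.80 and 4.67 in oil oviduct, with differences of -2.09 in E2 mice and -1.56 in oil mice. For each of these genes every oviduct array was below every uterine array of the same treatment, except Klra8 in oil mice, where oil uterus replicate 3 overlapped the oviduct. Tbx21 was lower in oviduct by smaller amounts, with differences of -0.78 in E2 mice and -0.47 in oil mice.

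The granzymes differed between the organs as well. Gzmb read 4.95, 4.90 and 4.81 in E2 oviduct and 4.72, 4.97 and 4.82 in oil oviduct, below the background level. Its difference from uterus was -1.76 in E2 mice (limma adjusted p = 0.00215) and -2.60 in oil mice (limma adjusted p = 0.000102). Without oil replicate 3 the difference in oil mice was -3.13. Gzma read 5.26, 5.33 and 5.30 in E2 oviduct and 5.10, 5.57 and 5.26 in oil oviduct, and its differences were -1.59 in E2 mice and -1.13 in oil mice. Gzmc was lower in oil oviduct than in oil uterus without overlap (-1.35, limma adjusted p = 0.00680), and in E2 mice its arrays did not overlap either, at a difference of -0.72 that was not called with all arrays (limma adjusted p = 0.123) and was called without oil replicate 3 (limma adjusted p = 0.00237). Gzmd was lower in oviduct at levels below background, by log2 differences of -0.59 in E2 mice and -0.47 in oil mice. Gzmf was lower in oil mice alone (-0.38), and not called there without oil replicate 3 (limma adjusted p = 0.0909), and Gzmn was higher in E2 oviduct than in E2 uterus by 0.32. Both lay below the background level in every group. Prf1 read 6.31, 5.71 and 6.14 in E2 oviduct and 6.09, 6.33 and 6.02 in oil oviduct, with differences of -0.78 in E2 mice (limma adjusted p = 0.00345) and -0.89 in oil mice (limma adjusted p = 0.00114).

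Among the receptors, all 5 NKG2 and CD94 genes were lower in oviduct in both treatments. Klrd1 read 4.41, 4.73 and 4.67 in E2 oviduct and 4.89, 4.63 and 4.01 in oil oviduct, with differences from uterus of -2.28 in E2 mice and -1.32 in oil mice. Klrk1 differed by -2.22 in E2 mice and -1.22 in oil mice, Klrc3 by -2.06 and -1.38, Klrc1 by -1.33 and -0.94, and Klrc2 by -1.21 and -0.64. The levels of Klrc3 lay below background in every group. The oil-mouse difference of Klrc2 was -1.05 without oil replicate 3, and its call was kept in 8 of 12 fits that left out a single array. Klrb1c, Klrb1f, Klri2, Klra5 and Klra6 were called lower in oviduct in both treatments too. Their differences were between -2.14 and -0.67 in E2 mice and between -1.43 and -0.49 in oil mice. Of the 12 fits that left out a single array, 10 kept the oil-mouse call of Klrb1c and of Klri2, and 8 that of Klrb1f. Only 5 kept that of Klra5 and 2 that of Klra6, and both genes lay below the background level in every group. In oil mice the log2 difference of Klra8 was -1.75 (limma adjusted p = 0.0236), and -2.42 without oil replicate 3. Klra3, Klrb1, Klre1, Klrg1 and Cd244a were called lower in oviduct in E2 mice and not in oil mice, a contrast that the interaction did not call for any of them. Without oil replicate 3, Klra3 (-1.35), Klrb1 (-0.42) and Cd244a (-0.70) were called lower in oviduct in oil mice too, while Klra5 was no longer called there (-0.31, limma adjusted p = 0.189) and Klra6 was at -1.24. Klrb1a went the other way. It read 5.57, 5.80 and 5.88 in E2 oviduct and 6.10, 5.67 and 5.43 in oil oviduct, higher than uterus by 1.01 in E2 mice (limma adjusted p = 0.00144) and 0.68 in oil mice (limma adjusted p = 0.0137). Klrg2 was higher in oil oviduct than in oil uterus by 0.34 (limma adjusted p = 0.0192). Il15 read 5.99, 5.98 and 5.99 in E2 oviduct and 6.27, 5.87 and 5.55 in oil oviduct, with differences of -1.15 in E2 mice and -1.58 in oil mice. Il15ra differed from uterus by -0.34 in E2 mice and -1.0 in oil mice, and Xcl1 by -1.37 and -1.59.

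Other genes of NK biology were read from lists of partners. In E2 against oil uterus, 7 of 15 signalling adaptors and kinases rose and 0 fell (median 0.40), among them Fcer1g, the immunoreceptor adaptor of Fc receptors and NKp46 (0.84), Tyrobp, the DAP12 adaptor of activating Ly49 and CD94 complexes (0.77), and Vav1 (0.69). Of 25 other NK and innate lymphoid receptors, 11 rose and 0 fell (median 0.28), led by the integrin chain Itgam (1.35), the interleukin 18 receptor Il18r1 (1.25) and Cd7 (0.90). Of 13 transcription factors, 4 rose and 3 fell. Ikzf3 rose by 1.23, while Prdm1, which encodes Blimp1, fell by 0.88 and Nfil3, needed for NK development, fell by 0.79. Of 10 effector cytokine genes, 3 rose and 0 fell, with the death ligand Tnfsf10 (TRAIL) 1.36 higher and Ccl5 0.88 higher. Of 11 genes of IL-15 and common gamma chain signalling, 2 rose and 2 fell. Ligands of NK receptors rose in 6 of 15, granzyme inhibitors and granule matrix genes in 5 of 11 (Serpinb6b by 0.74), and chemokines that attract NK cells in 3 of 15 (Ccl8 by 1.43 and Cxcl16 by 1.15), with 0 falling in each of these lists. Raet1d, an NKG2D ligand gene, had a difference of -0.78 with all arrays (limma adjusted p = 0.135) and was called lower without oil replicate 3 (-1.10, limma adjusted p = 0.00749). Without that replicate the ligand list had 7 higher and 1 lower, the transcription factors 4 and 4, and the granule list 4 and 0. The background shares for the counts with all arrays are those of all genes given above, 12.4% higher and 14.3% lower. Without oil replicate 3 they are 13.5% and 14.5%.

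Markers of other cells were read in the same comparison, in which 12.4% of all genes rose and 14.3% fell with all arrays. Of 10 macrophage markers 8 rose (Cd68 by 1.22), of 10 neutrophil markers 2 rose, of 12 T cell markers 3 rose, of 7 pan-leukocyte markers 4 rose and of 10 epithelial markers 9 rose, and 0 fell in each. Of 8 endothelial markers 2 rose and 6 fell (median -0.53, Cdh5 -0.95), of 10 stromal and decidual markers 1 rose and 4 fell (median -0.35, Hand2 -0.66), and of 12 mast cell markers 2 rose and 2 fell. Their summed intensities were 4328 to 4692 in E2 uterus against 2518 to 3001 in oil uterus for macrophage markers, 3507 to 3539 against 1685 to 2480 for pan-leukocyte markers, and 636 to 715 against 562 to 594 for T cell markers. Stromal and decidual markers summed to 6869 to 7227 in E2 uterus against 8778 to 9111 in oil uterus. Dendritic cell markers rose in 1 of 10 with all arrays and in 4 without oil replicate 3, and smooth muscle markers in 2 of 8 and in 7. Without that replicate, 9 macrophage, 5 pan-leukocyte and 2 T cell markers were called higher, and 6 stromal and decidual markers were called lower. In that fit 13.5% of all genes were higher and 14.5% lower. Several of the lists above are shared with these cells, as Tyrobp, Fcer1g and Itgam are expressed by myeloid cells. The part of these markers in the differences of the members, Il15ra included, was not tested. Summed over the 43 members, intensity was 3686, 3917 and 4456 in E2 uterus, against 3752, 4203 and 2240 in oil uterus, and it was 1832, 1672 and 1644 in E2 oviduct, against 1733, 1677 and 1559 in oil oviduct.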

How the data were processed

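RNA of flushed mouse uterine horns and oviducts was read on 12 single-label Affymetrix arrays, in 4 groups of 3 biological replicates. The authors deposited intensities for 35556 probe sets, made with RMA per the submitters' processing notes. Its version is not given in the sources used. Array values were linear (array maxima 9102 to 9950), not log2 as had been assumed, and were log2 transformed. Platform annotation gave 21789 probe sets a single symbol, 1621 several and 12146 none. A gene took its single-symbol probe set with the highest mean, which gave 19938 genes.

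One linear model with a mean for each of the 4 groups took all arrays (lmFit, then eBayes, of limma 3.58.1 under R 4.3.3). Tests were two-sided, p-values were adjusted by Benjamini-Hochberg across the 19938 genes, and adjusted values under 0.05 counted as called. Changes are log2 units with SE. In simulated arrays with 200 changed genes, log2 changes of 1 were recovered in 89.6% of cases for the uterine comparison and 94% for the oviductal one. At 0.5 the shares were 59.7% and 62.7%. The changed genes were drawn at random from all genes, with independent noise and no array standing apart. Members low on oil uterus replicate 3 had wide SE in the uterine comparison, such as 0.54 for Klra8 and 0.39 for Klrk1. The shares are therefore not read as those of these members. The number of arrays limits the precision.

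Alternatives were the mean over probe sets, a filter on dim genes, replicate and mouse blocks, quantile normalization, another variance model, array weights, a pseudocount of 16, a fit of 2 groups alone, and leaving out each array or oil replicate 3. Same-numbered arrays of E2 and oil uterus correlated at 0.188, -0.012 and -0.057 in their deviations from group means. The numbers were therefore not taken as pairs across treatments, and these values cannot show pairs across organs. Same-numbered uterus and oviduct arrays correlated at 0.005, 0.047 and 0.262 in oil mice, and at 0.263, 0.026 and 0.034 in E2 mice. Oil uterus replicate 1 and oil oviduct replicate 2 correlated at 0.264, so these values do not decide the matter. Whether uterus and oviduct of one number came from one mouse is not stated in the labels, and the main fit took the organs as unpaired. Every member past a test was named with array values, as were the genes chosen by name and the granzyme and main receptor families, and up to 3 members of each other list past the uterine test by size. The members, lists and rules were chosen with earlier results of these data known. Promoter sequences are those of RefSeq, GRCm38.p6.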

Additional observations from a re-analysis of the deposited data

Results flagged for a closer look

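The E2 effect on Il15ra differed between the organs by a test of the difference itself: the oviduct change minus the uterine change was 0.66 log2 units (limma adjusted p = 0.00268). The oviduct change was 0.08 and the uterine change -0.59.

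The remaining results come from 4 probe sets that list several Klra genes and were therefore outside the comparisons, and 9 Klra genes and pseudogenes were read on such probe sets alone. All 4 were higher on every E2 uterus array than on any oil uterus array, by 0.73, 1.64, 1.56 and 1.41 in mean log2 intensity. Of all genes, 19.0% were higher in this way. The 4 probe sets list close copies and are not separate observations, so nothing is read from their count. The probe set with the difference of 1.64 lists 7 genes and read 7.03, 7.05 and 7.52 in E2 uterus, against 6.42, 6.71 and 3.56 in oil uterus. In the probe set with the difference of 1.56, which lists 5 genes, the values were 7.41, 7.50 and 7.80 in E2 uterus, against 6.93, 7.16 and 3.93 in oil uterus. In the probe set with the difference of 1.41, which lists 3 genes, they were 6.76, 6.84 and 7.42 in E2 uterus, against 6.22, 6.51 and 4.06 in oil uterus. The last, with 6 genes, read 5.12, 5.27 and 5.48 in E2 uterus, against 4.77, 5.06 and 3.85 in oil uterus. Oil uterus replicate 3 was the lowest uterine array of each and widens the mean differences given. These differences were not tested.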

How the results depend on the processing

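Of the alternatives tried, 0 reversed a called change of a named member. Between E2 and oil uterus 9 members were called with all arrays. The count was 3 of the 10 members kept by a filter on dim genes, 21 with array weights, 15 without oil replicate 3 of both organs and 5 with the 2 groups alone, and 3 to 16 with any single array left out. It was 3 without E2 uterus replicate 3, 16 without oil uterus replicate 2 and 12 without oil uterus replicate 3. The interaction called 1 member, against 5 with array weights, 6 without oil replicate 3 of both organs and 1 to 4 with single arrays left out, the higher counts being 4 without oil uterus replicate 2, 3 without oil uterus replicate 3 and 2 without oil oviduct replicate 3. Oviduct against uterus gave 30 calls in E2 mice and 27 in oil mice. The filter left 10 and 9 of 10 members called, and oil mice had 17 calls with the 2 groups alone. With single arrays left out the counts were 28 to 31 in E2 mice and 18 to 30 in oil mice. E2 against oil oviduct gave 0 calls under every alternative. With the replicate number as a block, the counts were 10 for the uterus, 0 for the oviduct, 1 for the interaction, 30 for the organs in E2 mice and 27 in oil mice. In oil mice the block dropped the organ calls of Klra6 and Klrc2 and added those of Klrb1 and Klrg1. In the uterus it dropped Klra6 and added Gzmn and Klrb1c. Klrc2 was not called in oil mice with the 2 groups alone either. Whether equal numbers mark one mouse is unknown. The low signal of the 16 members below the background level limits the precision of their changes. Causes of these shifts were not tested beyond the fewer genes or arrays in the fit.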
